A study of Mus musculus with 24 samples.

Results

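The 10 Toll-like receptor genes Tlr1, Tlr2, Tlr3, Tlr4, Tlr5, Tlr6, Tlr7, Tlr8, Tlr9, and Tlr13 were followed in RNA of mouse CD11b+ cells. They were found by gene symbol alone, from the probes that are not array controls, among the 32451 genes or transcripts that the array covers. CD11b, encoded by Itgam, is an integrin chain carried by monocytes, macrophages, granulocytes, and some dendritic and NK cells. The cells came from spleen or bone marrow, in WT, HDC-KO, or STAT6-KO animals that were controls or were taken 1, 2, or 4 weeks after myocardial infarction (MI), the death of heart muscle that follows loss of its blood supply. HDC-KO mice lack histidine decarboxylase, the enzyme that makes histamine, and STAT6-KO mice lack a transcription factor activated by interleukins 4 and 13. All mice were labelled male, and the methods give a Balb/C background and an age of 10 weeks for all genotypes. Each of the 24 combinations of genotype, tissue, and time had 1 single-colour array, made from cells pooled from 5 mice, so the spread between mice was not measured. Every p-value below measures only how far an effect varied between arrays of different conditions.

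Toll-like receptors are membrane proteins of innate immune cells that recognise molecules of microbes and of damaged cells. Tlr1, Tlr2, Tlr4, Tlr5, and Tlr6 act at the cell surface and bind lipids and proteins of the microbial envelope. Tlr3, Tlr7, Tlr8, Tlr9, and Tlr13 act in endosomes and bind nucleic acids. Most of them signal through the adaptor Myd88, the Irak kinases, and the ubiquitin ligase Traf6 to NF-kB, while Tlr3 uses the adaptor Ticam1 (TRIF).

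Of the 24 arrays, 22 were complete, 11 of spleen and 11 of bone marrow. Left out were the control array of HDC-KO spleen, with only 229 spots, and the MI 1 week array of STAT6-KO bone marrow, with 84. Levels are log2 signals relative to the 75th percentile of the array, which was 928 to 2461 in spleen and 963 to 1780 in bone marrow. Between 70.4 and 79.8% of spots were well above background by the scanner software. Levels describe 1 probe across arrays and were not compared between genes. Hdc was 1.67 to 2.78 in the HDC-KO arrays and 4.32 to 5.51 in the WT arrays. Stat6 was 1.76 to 2.34 in STAT6-KO against 2.78 to 3.70 in WT bone marrow, but in spleen the ranges met, at 1.94 to 2.44 against 2.38 to 2.90. Xist, the RNA of the inactive X chromosome, went against the male labels: the 7 HDC-KO arrays and both STAT6-KO controls had it well above background on both probes. These 9 arrays had -3.18 to -0.74 on the probe that was not well above background in any of the other 13. No WT array was among the 9, so this signal and HDC-KO cannot be told apart. In STAT6-KO the signal cannot be told apart from being a control. Of 4 Y-linked genes, Eif2s3y was lower in HDC-KO than in WT spleen (-1.46), and Ddx3y (-1.205) and Uty (-1.26) were lower in HDC-KO bone marrow. The median of the 4 was -1.38 and -1.23 in these comparisons, none passed in STAT6-KO, and at least 3 of the 4 were well above background on every array. Tlr7, Tlr8, and Tlr13 lie on the X chromosome. Each of the 6 slides carried the 4 time points of 1 genotype and 1 tissue, always placed alike. Slide and genotype in a tissue cannot be told apart, and neither can time and place on the slide. Each tissue lay on 3 slides of its own, so the 10 pairs of tissues compared below come from 3 pairs of slides.

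Each gene had 1 probe, except Tlr7, whose 2 probes correlated at r = 0.962 over the 22 arrays, of which the brighter was used. The Tlr2 probe was printed 10 times per array, with an SD between spots of 0.0263 to 0.0953 on the log2 scale. All genes but Tlr3 and Tlr5 were well above background on all 22 arrays. Tlr5 was so on 21 and Tlr3 on 12.

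Promoter sequences were taken from RefSeq (build GRCm38.p6), which gave 10 promoters for 8 of the 10 genes, with none for Tlr4 and Tlr7. Shown are the 250 bases upstream of the start of the genes that separated the tissues without overlap (Tlr3, higher in spleen, and Tlr5, higher in bone marrow) and of Tlr9, which differed between genotypes. Capitals mark matches on either strand to GAGGAA (a core of PU.1 sites), a pair of GAAA boxes with 2 bases between them (an interferon-response element), or GGG followed after any 3 bases by TNCC (a loose form of the NF-kB site). The Tlr3 promoter lies on the minus strand at chr8:45410381-45410630, the Tlr5 promoter on the plus strand at chr1:182954538-182954787, and the Tlr9 promoter on the plus strand at chr9:106222348-106222597.
Tlr3: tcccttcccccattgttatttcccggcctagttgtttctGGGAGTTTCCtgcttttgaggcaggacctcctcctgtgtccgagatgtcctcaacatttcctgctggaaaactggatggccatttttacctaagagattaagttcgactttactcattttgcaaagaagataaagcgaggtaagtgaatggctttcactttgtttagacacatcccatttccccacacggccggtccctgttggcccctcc
Tlr5: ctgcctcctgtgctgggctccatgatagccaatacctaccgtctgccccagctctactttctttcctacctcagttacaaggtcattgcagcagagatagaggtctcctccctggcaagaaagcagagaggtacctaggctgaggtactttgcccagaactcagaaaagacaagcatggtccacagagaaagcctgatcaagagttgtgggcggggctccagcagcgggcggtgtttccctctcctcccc
Tlr9: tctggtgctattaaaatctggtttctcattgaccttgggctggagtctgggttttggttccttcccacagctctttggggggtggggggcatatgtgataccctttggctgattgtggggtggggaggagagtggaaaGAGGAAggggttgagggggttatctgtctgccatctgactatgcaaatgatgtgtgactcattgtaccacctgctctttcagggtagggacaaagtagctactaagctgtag
Tlr3 held 1 match to the NF-kB form, Tlr9 1 match to GAGGAA, and Tlr5 none. Over the 10 promoters, GAGGAA was in 4, against 23.3% of all 32851 promoters of this length. The NF-kB form was in 3 against 14.9%, the interferon-response element in 1 (Tlr6) against 2.98%, and the E-box CANNTG, which is not in capitals, in 5 against 66.2%. The matches describe letters and show no binding.

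The plot of all 10 genes by array shows the levels that the comparisons below rest on.

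**Figure D1:**
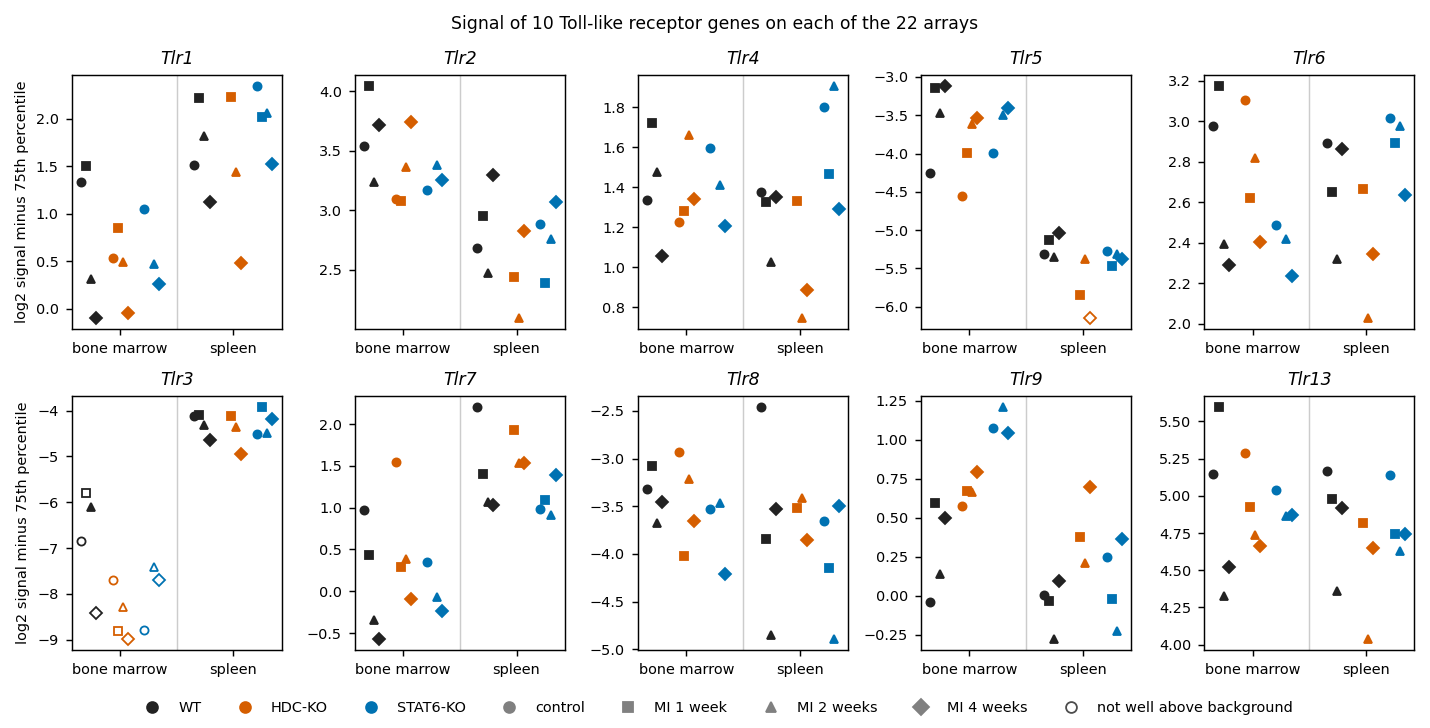
Level of each Toll-like receptor gene on the 22 complete arrays, as log2 signal minus the 75th percentile of the array (vertical axis), by tissue (horizontal axis). Colour gives the genotype, shape the time point, and open symbols mark dim signals, not well above background; the spleen and bone marrow points are fully apart for Tlr3 and Tlr5.

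The first comparison asked how CD11b+ cells of the spleen differ from those of the bone marrow, over 10 pairs of arrays of the same genotype and time. Tlr3, Tlr7, and Tlr1 were higher in spleen, and Tlr5, Tlr2, and Tlr9 were lower. Tlr4, Tlr6, Tlr8, and Tlr13 did not pass the test. Tlr3 passed the filter on dim signals through the spleen arrays alone, so it had to differ and is given as a bound. Of the other 9 genes, 5 passed (limma, Benjamini-Hochberg adjusted p under 0.05), 2 higher and 3 lower. This stands beside 54.5% of the 27626 genes tested, with 22.4% higher and 32.1% lower, so the share is near that of all genes. With slide as a random block the same 5 genes passed, with adjusted p of 3.41e-07 to 0.00480. That fit takes a correlation shared by all genes and still counts the arrays of a slide as replicates. With 3 slides per tissue, it cannot show how far the differences exceed the spread between slides. In bulk RNA, fewer cells of a type and less RNA per cell cannot be told apart.

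Among the surface receptors, Tlr5, the receptor of bacterial flagellin, was lower in spleen. It was -6.14 to -5.04 in the 11 spleen arrays (median -5.35) and -4.56 to -3.12 in the 11 bone marrow arrays (median -3.54). In WT spleen it was -5.31, -5.13, -5.35, and -5.04 (control, then MI 1, 2, and 4 weeks), and in WT bone marrow -4.26, -3.14, -3.48, and -3.12. Every bone marrow array was above every spleen array, as held for 7.31% of all genes. The mean difference was -1.81 (SE 0.14, adjusted p = 8.53e-07), or 3.51-fold lower in spleen, with all 10 pairs in that direction. It was -0.99 with normexp background correction.

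Tlr2, which pairs with Tlr1 or Tlr6 to bind bacterial lipoproteins, was also lower in spleen. Its level was 2.10 to 3.30 in spleen (median 2.76) and 3.08 to 4.04 in bone marrow (median 3.36). The ranges met, but the spleen array was the lower in all 10 pairs, with differences of -1.26 to -0.19. The mean was -0.70 (SE 0.12, adjusted p = 0.000403), or 1.63-fold lower in spleen.

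Tlr1, the partner of Tlr2 for triacylated lipopeptides, went the other way. Its level was 0.48 to 2.35 in spleen (median 1.82) and -0.10 to 1.51 in bone marrow (median 0.495). Spleen was higher in all 10 pairs although the ranges overlapped widely. The mean difference was 1.06 (SE 0.15, adjusted p = 8.01e-05), or 2.09-fold.

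Tlr6, the partner of Tlr2 for diacylated lipopeptides, was 2.03 to 3.02 in spleen and 2.23 to 3.17 in bone marrow. The difference was 0.06 (95% interval -0.27 to 0.38, adjusted p = 0.775), with 5 pairs in each direction. Tlr4, the receptor of lipopolysaccharide, was 0.75 to 1.91 in spleen and 1.06 to 1.72 in bone marrow. Its difference was -0.105 (95% interval -0.41 to 0.20, adjusted p = 0.559), and 6 of 10 pairs were higher in spleen. In both genes the sign varied between pairs and the interval spanned 0.

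Among the endosomal receptors, Tlr3, which binds duplex RNA, was higher in spleen. It was -4.94 to -3.93 in spleen (median -4.31) and -8.98 to -5.79 in bone marrow (median -7.70). All 11 spleen arrays were well above background and above every bone marrow array, as held for 5.87% of all genes. Among the bone marrow arrays, WT at MI 2 weeks (-6.11) was the only one well above background. The WT array at MI 1 week had the highest bone marrow value, -5.79, which was not well above background. With the dim arrays set at the lowest signal that was well above background, the means were -4.33 and -6.47. On the background-subtracted signals used here, spleen was thus at least 4.40-fold higher. This bound does not hold for another background correction, since the log2 difference was 0.79 with normexp in its place. No p-value is given, because Tlr3 entered the test through the spleen arrays alone.

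Tlr7, which binds single-stranded RNA, was 0.91 to 2.20 in spleen (median 1.39) and -0.57 to 1.54 in bone marrow (median 0.29). Spleen was higher in all 10 pairs, by 0.63 to 1.65. The mean was 1.29 (SE 0.12, adjusted p = 4.50e-06), or 2.44-fold. The other Tlr7 probe gave 1.16 (SE 0.11, adjusted p = 3.85e-06 over all probes).

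Tlr9, which binds CpG DNA, was -0.28 to 0.70 in spleen (median 0.10) and -0.04 to 1.21 in bone marrow (median 0.66). Bone marrow was higher in 9 of 10 pairs. The mean difference was -0.52 (SE 0.14, adjusted p = 0.00686), or 1.43-fold lower in spleen. By genotype, the mean over pairs was -0.35 in WT, -0.28 in HDC-KO, and -0.985 in STAT6-KO, so the size of the difference varied between the 3 pairs of slides, which are also the genotypes.

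Tlr8, a second sensor of single-stranded RNA, was -4.89 to -2.46 in spleen and -4.21 to -2.93 in bone marrow. The difference was -0.19 (95% interval -0.68 to 0.30, adjusted p = 0.506). Tlr13, which binds bacterial ribosomal RNA, was 4.04 to 5.17 in spleen and 4.33 to 5.596 in bone marrow. The difference was -0.12 (95% interval -0.38 to 0.13, adjusted p = 0.398). Neither gene had more than 7 of 10 pairs in the same direction.

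**Figure D2:**
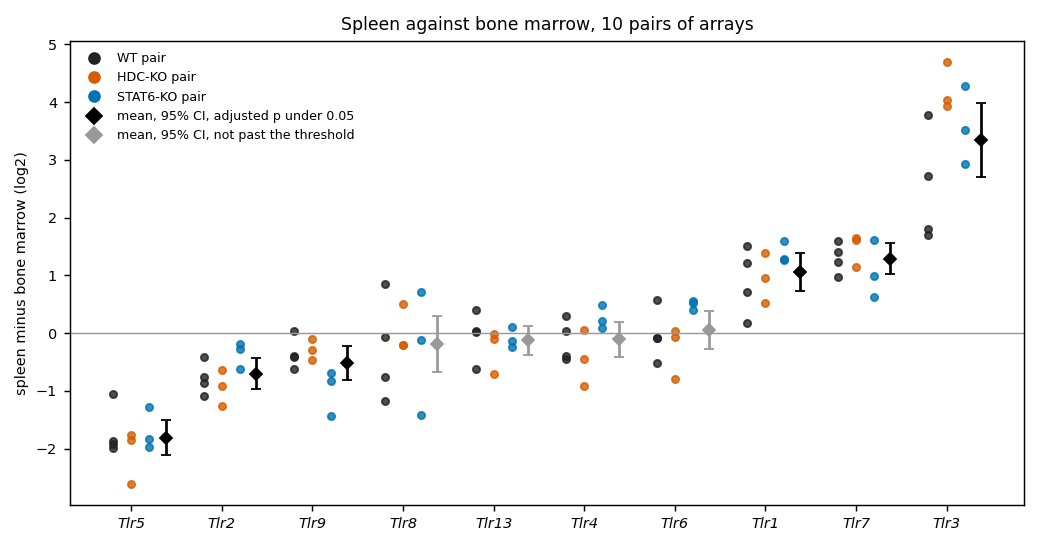
Spleen minus bone marrow difference in log2 signal for each of the 10 Toll-like receptor genes. Points are the 10 pairs of the same genotype and time, and the bar gives the mean with its 95% interval from the limma fit, black where the adjusted p was under 0.05. The Tlr3 points use bone marrow signals that were well above background on 1 of 11 arrays. Its bar is drawn at the measured values, not at the bound of 2.14, and its black colour is not a call. Tlr3, Tlr7, and Tlr1 lie above 0 and Tlr5, Tlr2, and Tlr9 below.

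Markers of several cell types moved with tissue, and their part in these differences was not tested. For each list the level is the mean log2 signal of its genes on an array. Of all genes, 22.4% were higher in spleen and 32.1% lower, so the counts per list are descriptions. Macrophage and monocyte markers were higher in spleen for 5 of 5 genes tested, at 3.11 to 4.07 against 1.79 to 2.75. Conventional dendritic cell markers were higher for 5 of 6, at -0.93 to 0.03 against -3.03 to -1.95. B cell markers were higher for 5 of 6 (1 lower), at 0.37 to 2.21 against -1.77 to 0.97, and T cell markers for 4 of 6 (1 lower), at -0.55 to 1.78 against -1.55 to -0.99. Plasmacytoid dendritic cell markers were higher for 2 of 4 and NK cell markers for 3 of 5. Thus lymphocyte markers were present in cells sorted on CD11b. Neutrophil precursor granule markers were lower in spleen for 6 of 6, at 0.84 to 3.57 against 4.22 to 5.13, and mature neutrophil markers for 5 of 7, at 3.17 to 4.845 against 4.66 to 5.34. Itgam and its partner Itgb2 were themselves lower in spleen (-1.47 and -1.31), while all 3 CD11b identity genes were well above background on every array.

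The levels were then ordered over the 6 sets of 1 genotype and 1 tissue, each of 3 or 4 arrays. Neighbours in this order overlapped for all genes, with 3 exceptions. For Tlr3 the lowest spleen set, HDC-KO (-4.47 ± 0.43, SD, n = 3), was above all bone marrow arrays, among which no order is given because 10 of the 11 were not well above background. For Tlr5 the lowest bone marrow set, HDC-KO (-3.93 ± 0.46, SD, n = 4), was apart from the highest spleen set, WT (-5.21 ± 0.145, SD, n = 4). For Tlr9 the top set, STAT6-KO bone marrow (1.11 ± 0.09, SD, n = 3), was apart from the next, HDC-KO bone marrow (0.68 ± 0.09, SD, n = 4). The arrays of a set are different time points, so these SDs hold any change with time. The share of all genes with such gaps between neighbouring sets was not counted, so the exceptions are descriptions.

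The next comparison asked how the knockouts differ from WT within a tissue, with time as an additive term. Both knockouts were set against the same WT arrays. Tlr9 was higher in STAT6-KO than in WT bone marrow, and it was the only one of these genes to pass in any genotype comparison. In WT bone marrow it was -0.04, 0.59, 0.14, and 0.50 at control and MI 1, 2, and 4 weeks. In STAT6-KO bone marrow it was 1.08 at control, 1.21 at MI 2 weeks, and 1.05 at MI 4 weeks. All 3 STAT6-KO arrays were thus above the WT array of their own time by 0.55 to 1.12, as held for 26% of all genes. The difference was 0.86 (SE 0.16, limma adjusted p = 0.0317), or 1.82-fold. It was 1 of 9 genes tested, beside 4.61% of all genes, with 3.98% higher and 0.628% lower. Tlr3 was too dim in bone marrow to be tested. Over the alternatives the difference was 0.755 to 1.015 and the adjusted p 0.0187 to 0.389. The call was lost without the control arrays (0.755, adjusted p = 0.191), without MI 2 weeks (0.77, 0.260), and without MI 4 weeks (1.015, 0.0852). It was also lost without the 9 arrays with an Xist signal (0.81, adjusted p = 0.389). In the same comparison 1 of 6 B cell markers was lower (Pax5, -1.04, list median -0.51) and 2 of 6 T cell markers were higher (Cd4 by 0.775 and Cd8a by 0.605, list median 0.36). Of 5 NK cell markers 1 was higher (Prf1 by 0.54), although the list median was -0.15. The part of these genes in the Tlr9 difference was not tested.

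Tlr9 was on the same side in the other genotype comparisons, but none passed. In HDC-KO bone marrow it was 0.57, 0.675, 0.66, and 0.79 in the order of time, above WT at all 4 times. The difference was 0.38 (SE 0.15, adjusted p = 0.210). In HDC-KO spleen it was 0.38, 0.21, and 0.70 at MI 1, 2, and 4 weeks, where WT had -0.03, -0.28, and 0.10. The difference was 0.52 (SE 0.13, adjusted p = 0.0764), and all 3 HDC-KO arrays were above their WT partners. In STAT6-KO spleen it was 0.25, -0.02, -0.23, and 0.36 against 0.00, -0.03, -0.28, and 0.10 in WT. The difference there was 0.14 (SE 0.12, adjusted p = 0.501), and each array was above its WT partner, by 0.01 to 0.27. Arrays that all lay above their WT partners were seen for 10.6% of all genes in STAT6-KO spleen, 26% in STAT6-KO bone marrow, 32.2% in HDC-KO spleen, and 17.3% in HDC-KO bone marrow.

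Tlr5 was below WT in the HDC-KO arrays of both tissues, without passing the test. In HDC-KO spleen it was -5.85, -5.38, and -6.14, the last not well above background, and the difference was -0.59 (SE 0.20, adjusted p = 0.142). In HDC-KO bone marrow it was -4.56, -4.00, -3.62, and -3.54, and the difference was -0.43 (SE 0.16, adjusted p = 0.202). The arrays of each set were all below their WT partners. This held for 4 of the 10 genes in HDC-KO spleen (Tlr2, Tlr3, Tlr5, and Tlr13), beside 20.5% of all genes, and for 1 of 9 in bone marrow (Tlr5), beside 16.2%. Tlr7, on the X chromosome, was above WT by 0.47 to 0.53 in the 3 HDC-KO spleen arrays. Its difference in the fit was 0.35 (95% interval -0.26 to 0.96, adjusted p = 0.471). On the other Tlr7 probe the fit gave 0.12 (adjusted p = 0.830), and at MI 4 weeks HDC-KO was not above WT (0.74 against 0.79). Of 6 T cell markers, Cd5 was higher in HDC-KO spleen by 0.95 (list median 0.91) and Cd8a in HDC-KO bone marrow by 0.74 (list median -0.47), and their part in these values was not tested.

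No Toll-like receptor gene passed in STAT6-KO spleen (0 of 10, beside 1.96% of all genes), HDC-KO spleen (0 of 10, beside 2.81%), or HDC-KO bone marrow (0 of 9, beside 0.443%) with limma. At an unadjusted p under 0.05 the numbers were 0, 2, and 2, beside 22.9, 22.6, and 21.2% of all genes, so they were near the background. The genes were Tlr9 and Tlr5 in each HDC-KO tissue. The methods' t-test gave 0 in all 4 genotype comparisons, both at a fold over 2 and after Benjamini-Hochberg adjustment.

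Whether a genotype difference itself differed between tissues was tested with an interaction term over the pairs. No gene of the 10 passed in limma for STAT6-KO (0.347% of all genes did) or HDC-KO (0.988%). At an unadjusted p under 0.05 there was 1 gene of 10 in each, beside 13.7 and 14.9% of all genes. For Tlr9 the STAT6-KO term (spleen effect less marrow effect) was -0.64 (SE 0.27, adjusted p = 0.329). For Tlr3 the HDC-KO term was 1.72 (SE 0.52, adjusted p = 0.168), which rests on bone marrow signals that were mostly not well above background. The effect of STAT6-KO on Tlr9 is therefore not shown to be particular to bone marrow.

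**Figure D3:**
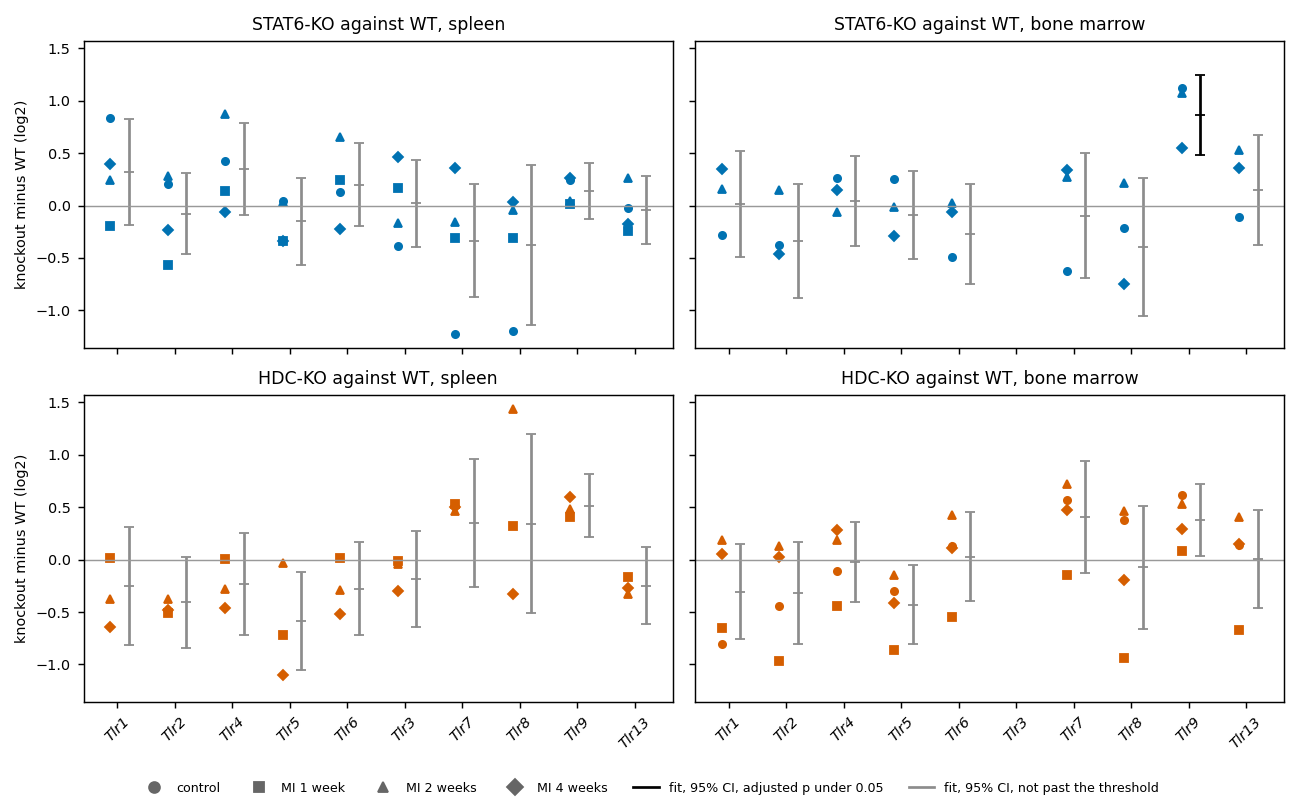
Knockout minus WT difference in log2 signal for each Toll-like receptor gene, with 1 panel for each knockout and tissue. Points are single time points and bars are 95% intervals of the limma fit; Tlr3 was not tested in bone marrow, and Tlr9 in STAT6-KO bone marrow was the only gene with an adjusted p under 0.05.

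Time after MI was compared with control within each tissue, with genotype as an additive term. No Toll-like receptor gene passed at any time point in either tissue. In spleen 0 of 10 passed at MI 1, 2, and 4 weeks and for the mean of the 3, beside 7.91, 2.25, 0, and 0.00379% of all genes. In bone marrow 0 of 9 passed in the same 4 comparisons, beside 0.148, 0, 0, and 0%. At an unadjusted p under 0.05 limma gave 0, 3, 1, and 2 of 10 genes in spleen, beside 27.4, 23.7, 8.69, and 15.7% of all genes. In bone marrow it gave 1, 3, 4, and 2 of 9, beside 19.7, 7.48, 19.2, and 16.7%. The methods' t-test gave 0 after adjustment in all 8 comparisons. At its own threshold with a fold over 2 it gave 1 gene, Tlr7 in bone marrow at MI 4 weeks. The share of all genes past that threshold is not given here, so this count is a description. The time points of a tissue share the control arrays, and the spleen effects rest on WT and STAT6-KO controls alone.

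Tlr5 and Tlr7 in bone marrow lay on opposite sides of control in the same 8 MI arrays, though neither passed. Tlr5 was -4.26 in the WT control and -3.14, -3.48, and -3.12 after MI, -4.56 and then -4.00, -3.62, and -3.54 in HDC-KO, and -4.00 and then -3.49 and -3.41 in STAT6-KO. All 8 MI arrays were above the control of their genotype, by 0.505 to 1.13, as held for 5.73% of all genes and for no other of the 9. The difference was 0.74 (SE 0.21, adjusted p = 0.148), 0.74 (SE 0.185, adjusted p = 0.621), and 0.91 (SE 0.185, adjusted p = 0.0865) at 1, 2, and 4 weeks. Tlr7 was 0.97 in the WT control and 0.44, -0.34, and -0.57 after MI, 1.54 and then 0.29, 0.38, and -0.09 in HDC-KO, and 0.35 and then -0.07 and -0.23 in STAT6-KO. All 8 MI arrays were below the control of their genotype, with differences of -1.64 to -0.42, as held for 4.32% of all genes and for no other of the 9. The difference was -0.69 (SE 0.30, adjusted p = 0.260), -0.97 (SE 0.26, adjusted p = 0.621), and -1.25 (SE 0.26, adjusted p = 0.0878). With the filter that keeps probes well above background on every array, which left 21355 genes, the adjusted p at 4 weeks was 0.0457 for Tlr5 and 0.0466 for Tlr7.

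Tlr1 in bone marrow was 1.34, 1.51, 0.31, and -0.10 in WT in the order of time, with the lowest value at 4 weeks in every genotype. Its difference at 4 weeks was -0.94 (SE 0.22, adjusted p = 0.1025), and in spleen -0.75 (SE 0.29, adjusted p = 0.542). In spleen, Tlr13 was 5.17, 4.98, 4.36, and 4.92 in WT, and 5.14, 4.74, 4.63, and 4.75 in STAT6-KO. All 6 spleen MI arrays were below their control for Tlr13 and for Tlr6, 2 of 10 genes beside 6.1% of all genes. The Tlr13 difference at 2 weeks was -0.735 (SE 0.19, adjusted p = 0.0805). Tlr8 at the same time was 2.83-fold lower, at -1.50 (SE 0.44, adjusted p = 0.102), from -2.46 to -4.85 in WT and from -3.655 to -4.89 in STAT6-KO. These spleen values did not pass and came with a wide interval for Tlr8 (-2.52 to -0.48).

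Marker genes also differed with time, and their part in these values was not tested. In spleen at 1 week 4 of 6 T cell markers were lower (Cd3e, Cd3g, Cd5, and Cd8a, list median -1.475), beside 6.28% of all genes. Of 6 neutrophil precursor granule markers, Elane and Prtn3 were higher (list median 1.125), beside 1.63% of all genes. Zbtb46 was the only one of 6 conventional dendritic cell markers to pass, lower at 1 week (-2.22) and 2 weeks (-1.82), while the list medians were 0.43 and 0.05. The B cell list had a median of 0.87 in spleen at 2 weeks. In bone marrow at 1 week it had a median of -2.14, and Pax5 was lower (-1.91). Interferon-induced genes had medians of 1.68 in spleen and 2.14 in bone marrow at 1 week, and none of the 6 passed the test in limma.

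**Figure D4:**
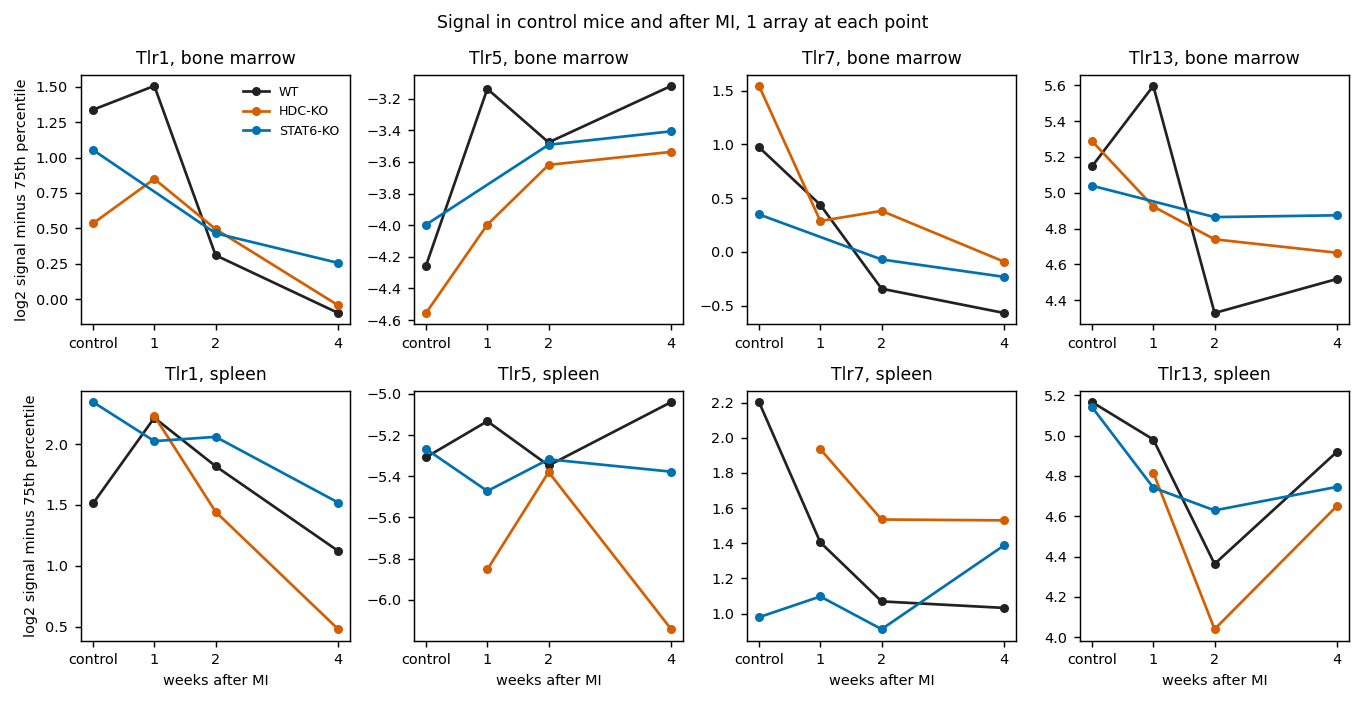
Log2 signal of Tlr1, Tlr5, Tlr7, and Tlr13 against time (control, then 1, 2, and 4 weeks after MI) in bone marrow (top) and spleen (bottom), with 1 line per genotype and 1 array per point. In bone marrow all MI arrays lie above their control for Tlr5 and below it for Tlr7; no difference passed the test.

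The genes around the receptors were read from lists of 40 genes, of which 39 were tested between the tissues. Of these, 14 were higher and 8 lower in spleen, together 22 of 39 beside the 54.5% of all genes given above. The median difference was 0.10 beside -0.165 over all genes. Since 22.4% of all genes were higher and 32.1% lower, the counts per list below are descriptions. The other murine receptors, Tlr11 and Tlr12, which bind profilin of protozoan parasites, were both higher, by 3.04 (SE 0.25, adjusted p = 1.71e-06) and 2.13 (SE 0.19, adjusted p = 2.57e-06). Of 6 co-receptors and ligand carriers, 3 were higher and 1 lower. Lbp, which carries lipopolysaccharide, was lower (-2.99, SE 0.33), while Cd180, its partner Ly86, and the scavenger receptor Cd36 were higher by 1.54, 1.62, and 1.49. Of 5 genes for receptor folding and trafficking, 3 were higher and none lower. These were the endosomal proteases Lgmn (1.825, SE 0.11) and Ctss (0.83, SE 0.11), which can cleave endosomal receptors, and the chaperone Hsp90b1 (0.49, SE 0.12).

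Further along the pathway the directions were mixed. Of 4 adaptors tested, Tirap, which links Tlr2 and Tlr4 to Myd88, was lower (-1.515, SE 0.14, adjusted p = 3.46e-06). Myd88 was lower (-0.42, SE 0.135, adjusted p = 0.0207), and Ticam2, which links Tlr4 to Ticam1, was higher by 0.53 (SE 0.20, adjusted p = 0.0390). Of 12 kinases and ubiquitin ligases, 2 were higher and 3 lower, among them Irak1 (0.575) and Irak4 (-0.74). Of 5 transcription factors, Irf5, which acts downstream of Myd88, was the only one to pass, at 0.87 (SE 0.18, adjusted p = 0.00149). Of 5 inhibitors, Irak3 (-2.35, SE 0.11, adjusted p = 2.18e-08) and Tollip (-0.75) were lower, and Tnfaip3 (1.29) and Sigirr (0.83) were higher. In STAT6-KO bone marrow 1 of the 39 genes was higher and 1 lower, together near the 4.61% of all genes that passed there. These were Nfkb1, higher by 0.62 (SE 0.14, adjusted p = 0.0497), and Tlr11, lower (-1.94, SE 0.37, adjusted p = 0.0317). In the other genotype, time, and interaction comparisons 0 of 39 passed with limma.

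**Figure D5:**
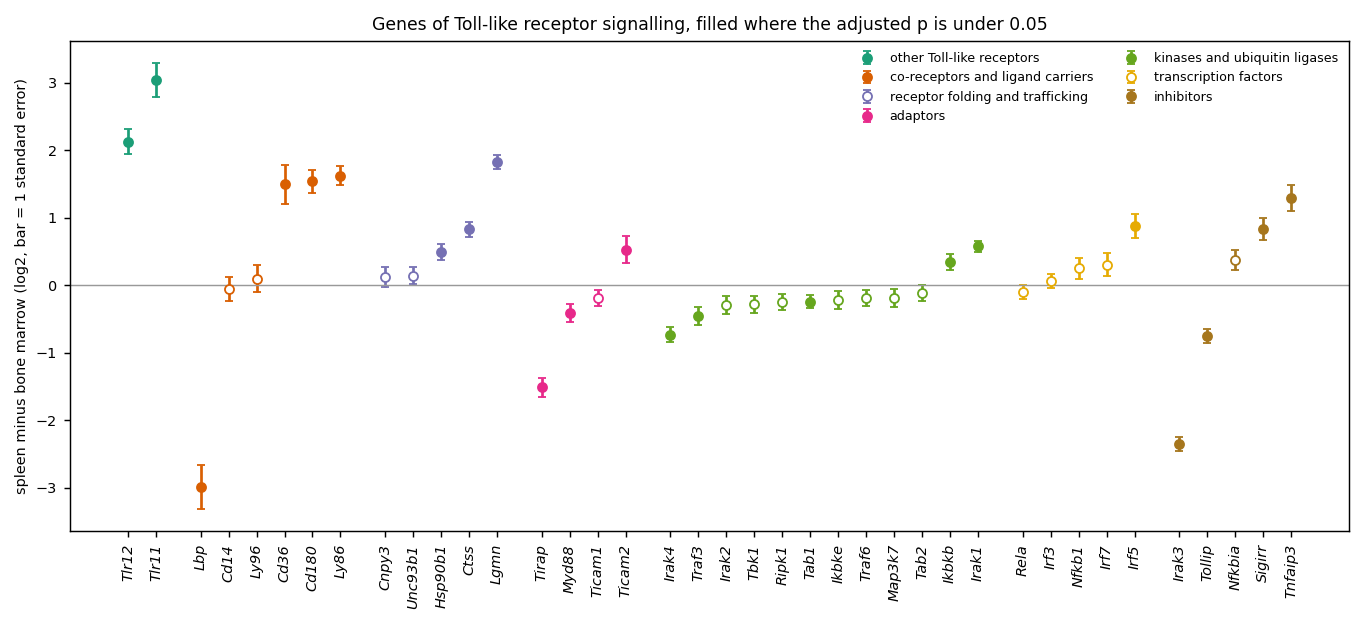
Spleen minus bone marrow difference in log2 signal of the 39 pathway genes tested, grouped by role, with bars of 1 SE from the limma fit. Filled points have an adjusted p under 0.05; 14 lie above 0 and 8 below.

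Lastly, the pattern over the 22 arrays was described after the mean of each tissue was taken from every gene. These correlations are across arrays that differ in genotype and time and are given without a test. Among the receptors themselves, Tlr6 and Tlr13 were most alike (r = 0.795), followed by Tlr4 and Tlr6 (0.693) and Tlr7 and Tlr8 (0.611), and Tlr5 and Tlr7 were most opposed (-0.683). Fam114a1 was the closest gene with a symbol to Tlr6 (0.894) and the second closest to Tlr13 (0.841), whose closest was Ogfrl1 (0.885). For the other surface receptors the closest genes were Ube3b for Tlr1 (0.865), Acod1 for Tlr2 (0.854), Gcnt1 for Tlr4 (0.849), and Khnyn for Tlr5 (0.817). For the other endosomal receptors they were Havcr2 for Tlr7 (0.867), Itga4 for Tlr8 (0.873), and Gm10745 for Tlr9 (0.911). No gene is given for Tlr3, whose bone marrow values were mostly not well above background. Each receptor was also set against the level of each cell type list, and the most extreme values are picked from all of these. Tlr2 and Tlr13 followed mature neutrophil markers (0.659 and 0.657), Tlr8 conventional dendritic cell markers (0.635), and Tlr1 went against B cell markers (-0.623). Others were close, such as Tlr5 with CD11b identity genes (0.604) and Tlr4 with NK cell markers (-0.597). Acod1, closest to Tlr2, encodes the enzyme that makes itaconate in activated macrophages. Tlr2 itself had r = 0.346 with the macrophage and monocyte list.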

How the data were processed

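CD11b+ cell RNA was hybridised by the authors to single-colour Agilent arrays and read with Feature Extraction 11.0.1.1. The deposited values used are spot intensities after background subtraction and spatial detrending, per the file headers, with no scaling between arrays. The submitters' processing notes also name GCRMA, whose values were not used here. Each array held 43020 non-control spots for 39429 probes, of which 27234 were named through RefSeq (build GRCm38.p6). In the 22 arrays 3055 outlier spots were left out and 0 were saturated.

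The log2 signal minus the array's 75th percentile was fitted with limma 3.58.1 (R 4.3.3, with data.table in version 1.17.8) over all genes that were well above background on at least 2 arrays, using the brightest probe per gene. Tissues were compared over 10 pairs with pair as a block, and genotype and time in additive fits of 11 arrays. Adjusted p is Benjamini-Hochberg. The number of arrays limits the precision. The fits of tissue, of STAT6-KO in bone marrow, and of MI 4 weeks in bone marrow were tried on altered data. There the fitted effect was taken out of the real arrays and known changes were added to some genes. The outcome is not given here, and the other fits were not tried in this way.

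All 10 receptors were named. At most 4 pathway genes per list were named, those with the largest change in the tissue comparison among those that passed. The 3 genes most like each receptor were ranked and the first is given, except for Tlr3. Markers are given by list, with examples that passed. Results of some genes are not reported here. The receptors and lists were chosen with earlier results of these data known. Alternatives concerned scaling, background correction, filters, probes, test, block, and left-out arrays. The left-out arrays included that of STAT6-KO spleen at MI 4 weeks, which was marked as doubtful but kept in the main fits. The reason for the doubt is not given here. Plots were drawn with matplotlib.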

Additional observations from a re-analysis of the deposited data

Results flagged for a closer look

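For Tlr4 in WT spleen, the array at MI 2 weeks (1.03) lay far below the other 3, of which the nearest was 1.33. This was 1 of 50 sets of values looked at, and chance gives such a gap in about 1 in 20 sets.

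In 4 cases every spleen array and every bone marrow array lay on opposite sides of the control of its genotype after MI. All 10 genes were looked at for this at MI 1, 2, and 4 weeks. The share of all genes with such a pattern was not counted, so the cases are descriptions. None of these differences was tested. For Tlr4 at MI 1 week the mean change was -0.19 in spleen and 0.22 in bone marrow, a difference of -0.41. For Tlr5 at MI 2 weeks it was -0.045 in spleen and 0.74 in bone marrow, a difference of -0.785. The Tlr5 changes in spleen were only -0.05 and -0.04. For Tlr9 the mean change was -0.15 and 0.37 at MI 1 week, a difference of -0.52. At MI 2 weeks it was -0.38 and 0.13, a difference of -0.51. Each mean rests on 2 or 3 arrays a tissue.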

How the results depend on the processing

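Of the counts of receptor genes that passed, 224 alternative values stayed within 1.5 times of the reported count and 9 did not. The reported count was 0 except between tissues, where it includes Tlr3, and in STAT6-KO bone marrow. A 0 that stayed 0 is among the 224. For single genes, 561 kept direction and call, 9 lost the call, 3 gained it, and 2 changed sign. Most of the 561 did not pass in the main fit and again did not pass. The Tlr9 call in STAT6-KO bone marrow was lost in 7 of 17 settings. The 1 gene that passed in STAT6-KO bone marrow (Tlr9) became 0 with the methods' t-test at a fold over 2 and after adjustment, with the 2 genotypes alone, and without the 9 arrays with an Xist signal. Leaving out a time point gave 0 to 1. In bone marrow at MI 4 weeks the count of 0 became 2 with the filter for signals above background on every array, where fewer genes were tested, and 1 with the methods' t-test at a fold over 2. Apart from these constructions, the cause was not tested. The shares of all genes that passed under these alternatives are not given here, so the counts are descriptions.

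Between tissues the genes that passed in the main fit passed again with no replicate block and with slide as a random block. With the methods' t-test at a fold over 2, Tlr2 and Tlr9 were lost. Tlr3 is left out of this reading, because it passed the filter through the spleen arrays alone. Tlr6 changed sign without the WT pair at MI 4 weeks (-0.001), with -0.001 to 0.15 over the left-out pairs, and Tlr4 without the 9 arrays with an Xist signal (0.011). This last setting, the other Tlr7 probe, and a test of every probe were chosen after seeing the data. Normexp was run on the median spot signal. The methods' t-test was not run for the interactions. With 1 array a condition, effects smaller than the spread between time points or genotypes could not be seen, and Tlr3 in bone marrow was limited by its signal over background.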
